A study of Mus with 18 samples.

Results

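The 10 genes described here are Nfe2l2, which encodes the transcription factor Nrf2, Keap1, which encodes its inhibitor, and 8 target genes of Nrf2, namely Nqo1, Hmox1, Gclc, Gclm, Srxn1, Txnrd1, Slc7a11 and Osgin1. They were chosen by name because moringa isothiocyanate-1 (MIC-1), the compound studied, belongs to a class of plant compounds held to act through Nrf2. Earlier results of these data were known when they were chosen. All 10 were found among the 21401 gene symbols of both expression tables, 1 from cells and 1 from muscle. No sequence or position of these genes was analysed here.

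Nrf2 is a transcription factor of the cap'n'collar family that pairs with small Maf proteins on antioxidant response elements. In resting cells Keap1 holds Nrf2 and hands it to a Cul3 ubiquitin ligase, so that Nrf2 is short-lived. Electrophiles, isothiocyanates among them, react with cysteines of Keap1, after which Nrf2 protein accumulates and raises genes for glutathione synthesis, thiol reduction, heme breakdown and quinone reduction. Because this switch acts on protein, the Nfe2l2 transcript measures the supply of Nrf2 mRNA and not the activity of Nrf2.

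RNA was sequenced in 18 libraries, 3 in each of 6 groups. One experiment used C2C12, a mouse myoblast line labelled wild type. Its groups were a saline vehicle control, LPS (lipopolysaccharide, 1 µg/mL) and LPS-MIC-1 (1 µg/mL LPS with 10 µM MIC-1 for 24 h). The study's text names a lower MIC-1 concentration for the sequenced myoblasts than the labels do, and ethanol as the vehicle of the myoblasts. The other experiment used gastrocnemius muscle of wild-type C57BL/6 male mice, of which no age is given in the sources used here. Its groups were vehicle control, LPS (10 mg/kg, injected into the peritoneum) and LPS-MIC-1 (80 mg/kg MIC-1 by gavage each day for 3 days before the same LPS injection), and muscle was taken 16 h after LPS. No group received MIC-1 without LPS. Nothing in the labels says that the cell libraries came from separate cultures, so p-values measure the spread between these libraries, which may be technical.

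Expression is given as FPKM, a measure of read density that takes transcript length and sequencing depth into account. In each experiment limma was run on log2(FPKM + 0.1) for genes with a mean FPKM over 1, which were 10877 genes in cells and 9475 in muscle. In the text, rose and fell mean a Benjamini-Hochberg adjusted p under 0.001 in cells or under 0.05 in muscle, and called means in addition an absolute log2 fold change over 1. All 10 genes passed the FPKM filter in cells and 9 passed it in muscle, where Slc7a11 did not. Where 2 groups of 3 libraries did not overlap, the exact permutation test gave p = 0.1, the smallest value that this design allows. The 3 comparisons of an experiment share libraries and are not independent of each other. The spread of each gene was estimated over all groups, so a spread-out group also raises the standard error of the comparison without it.

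Marker genes were read first, because they bear on every comparison in cells. Of the macrophage list, 11 of 12 genes were found, and their summed FPKM was 7983 to 8095 in the libraries labelled control, 5318 to 5460 in those labelled LPS and 77.8 to 228 under LPS-MIC-1. The myogenic list, with 10 of 10 genes found, summed to 0.187 to 0.555 in control, where Myf5, Myog and Pax7 were listed at 0. It summed to 0.322 to 2.53 in LPS, where Myf5, Pax7 and Actc1 were listed at 0, and to 855 to 1110 under LPS-MIC-1. The 6 libraries labelled control and LPS therefore go against the cell line they are labelled with, and groups are named here by their labels. In cells, the treatment with MIC-1 and this difference in marker genes cannot be told apart. LPS-MIC-1 replicate 1, with Lyz2 at 48.8 FPKM against 1.87 and 0.616 in the other replicates, and LPS replicate 3, with Des at 1.19 FPKM, stood apart in these markers.

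In the libraries labelled C2C12, 4 of the 10 genes were called between LPS and control, with Hmox1, Slc7a11 and Srxn1 higher in LPS and Gclc lower. Among all tested genes, 10.9% were called higher and 10.0% lower in that comparison. Between LPS-MIC-1 and LPS, Nqo1 and Txnrd1 were called higher and Hmox1 and Slc7a11 lower, against 24.3% and 25.6% of all tested genes. Between LPS-MIC-1 and control, Nqo1, Srxn1 and Txnrd1 were called higher and Gclc lower, against 21.1% and 22.1%. The numbers called in the comparisons that involve LPS-MIC-1 lay near these backgrounds. The median log2 fold change of the 10 genes was 0.55, 0.25 and 0.40 in the order given, beside 0.00, -0.05 and -0.06 over all tested genes.

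**Figure D1:**
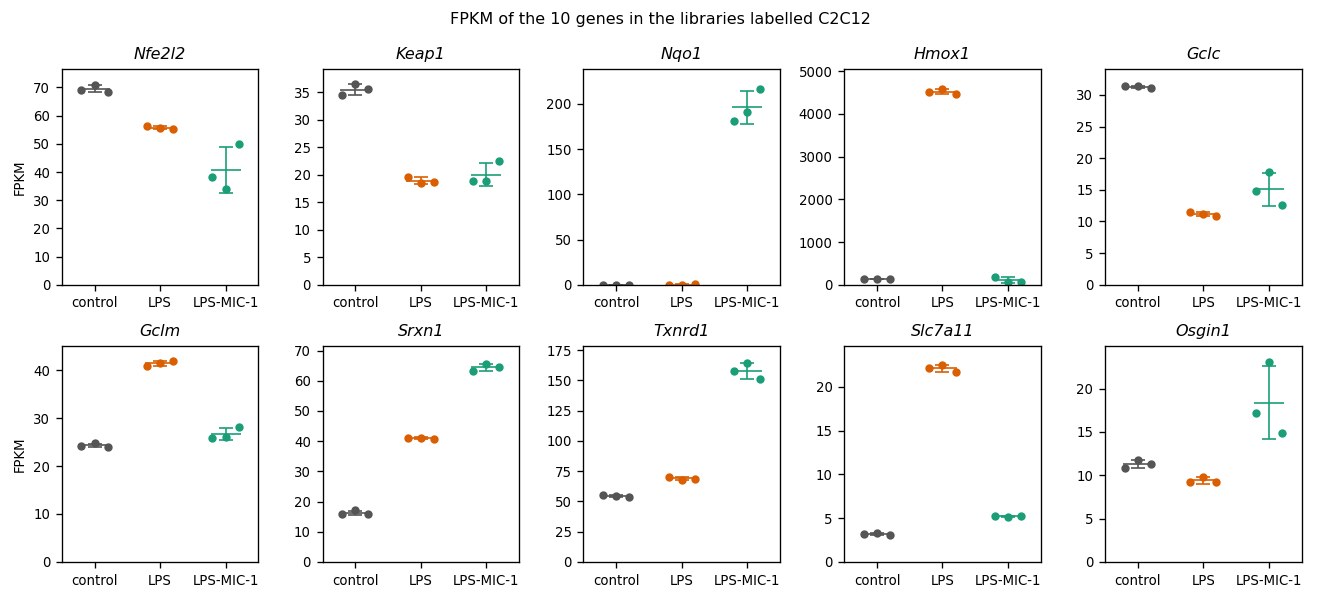
FPKM (vertical axis of each panel, from 0, with its own range) of the 10 genes in the libraries labelled C2C12, by group; points are the 3 libraries, and the wide bar and whiskers are their mean ± SD. Hmox1, Slc7a11 and Gclm peak in LPS, Nqo1 is near 0 in all 6 control and LPS libraries, and Srxn1 and Txnrd1 step up from control to LPS to LPS-MIC-1.

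Nfe2l2 FPKM in cells was 69.3, 71.0 and 68.5 in control, 56.4, 55.6 and 55.2 under LPS, and 38.1, 34.0 and 49.8 under LPS-MIC-1. The groups kept the order control, LPS, LPS-MIC-1 with no overlap, and the LPS-MIC-1 libraries were the most spread. The step from control to LPS was -0.32 on the log2 scale (standard error 0.121, adjusted p = 0.0481) and that from LPS to LPS-MIC-1 was -0.47 (standard error 0.121, adjusted p = 0.00616), neither past the threshold. Over the whole way from control to LPS-MIC-1, Nfe2l2 fell by 0.79 (standard error 0.121, adjusted p = 0.00036). Without LPS-MIC-1 replicate 3, the highest of its group, the steps of Nfe2l2 were -0.32 (standard error 0.0442, adjusted p = 0.0005) and -0.63 (adjusted p = 1.48e-05) and both passed. The standard error of the step from control to LPS changed although no control or LPS library was left out. Without LPS-MIC-1 replicate 1 or any of the 3 control libraries, the fall of Nfe2l2 from control to LPS-MIC-1 had an adjusted p of 0.00166 to 0.00204 and did not pass.

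Keap1 FPKM was 34.4, 36.4 and 35.5 in control, 19.6, 18.4 and 18.7 under LPS, and 18.9, 18.8 and 22.4 under LPS-MIC-1. Control stood above the other groups, which overlapped each other. Keap1 fell by 0.90 from control to LPS (standard error 0.0743, adjusted p = 1.61e-05) and by 0.83 from control to LPS-MIC-1 (standard error 0.0743, adjusted p = 1.31e-05), both short of the called fold. The difference between LPS-MIC-1 and LPS was 0.08 (standard error 0.0743, adjusted p = 0.357), and it was -0.0071 without LPS-MIC-1 replicate 3.

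Nqo1, which encodes a quinone reductase often used as a readout of Nrf2, was listed at 0.0366, 0 and 0 FPKM in control and at 0.0867, 0 and 0.477 in LPS. In LPS-MIC-1 it was 181, 191 and 216 FPKM. Every LPS-MIC-1 library was thus far above every other library, while control and LPS overlapped at the floor of detection. The log2 fold change of Nqo1 between LPS-MIC-1 and LPS was 9.79 (standard error 0.552, adjusted p = 6.14e-07), and its size depends on the value added before taking logs, being 7.39 with 1 added and 11.30 with 0.01 added. Its highest LPS value came from replicate 3, the LPS library with Des reads, and without it the log2 fold change was 10.48. The authors' mean normalized count of Nqo1 over the control and LPS libraries was 2.52, so that these levels rest on a few reads. Nqo1 passed the FPKM filter only through the LPS-MIC-1 libraries, so that its being called higher there was largely set by the filter. The rise of Nqo1 went with higher sums of the myogenic list and of the fibroblast list (7 of 7 genes found), the latter at 0.973 to 2.09 FPKM under LPS and 464 to 562 under LPS-MIC-1, and with a lower sum of the macrophage list. Their part in it was not tested.

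Hmox1, the inducible heme oxygenase, was 144, 145 and 145 FPKM in control and 4513, 4591 and 4470 in LPS, where it ranked 11 among the 10877 tested genes by mean FPKM. In LPS-MIC-1 it was 179, 67.4 and 75.5. LPS stood far above both other groups, and LPS-MIC-1 replicate 1 lay above control while replicates 2 and 3 lay below it. Hmox1 rose 31.2-fold by mean FPKM from control to LPS (log2 fold change 4.96, standard error 0.320, adjusted p = 4.19e-06). From LPS to LPS-MIC-1 it fell 42.2-fold (log2 fold change -5.54, standard error 0.320, adjusted p = 7.11e-07). LPS-MIC-1 and control overlapped, with a difference in Hmox1 of -0.58 (standard error 0.320, adjusted p = 0.126). Replicate 1 was also the LPS-MIC-1 library with the highest macrophage sum, 228 against 77.8 and 90.1. Without it, the log2 fold change of Hmox1 was -5.99 against LPS (adjusted p = 6.75e-10) and -1.02 against control (adjusted p = 2.20e-06), and Hmox1 was then called lower than in control as well.

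Gclc and Gclm encode the catalytic and the modifier subunit of glutamate-cysteine ligase, which makes the first step of glutathione synthesis. Gclc FPKM was 31.5, 31.3 and 31.1 in control, 11.5, 11.2 and 10.9 under LPS, and 14.8, 17.8 and 12.6 under LPS-MIC-1. Control was the highest group and LPS the lowest, with no overlap. Gclc fell from control to LPS by 1.48 (standard error 0.110, adjusted p = 9.48e-06) and was 1.06 lower in LPS-MIC-1 than in control (log2 fold change -1.06, standard error 0.110, adjusted p = 3.28e-05). The log2 fold change of Gclc from LPS to LPS-MIC-1 was 0.41 (standard error 0.110, adjusted p = 0.00766), which did not pass. Without LPS-MIC-1 replicate 3, the lowest of its group, it was 0.53 (adjusted p = 0.000388), and that against control was -0.94, short of the called fold.

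Gclm went another way than its partner subunit. Its FPKM was 24.1, 24.7 and 24.0 in control, 41.0, 41.5 and 42.0 under LPS, and 25.8, 26.1 and 28.1 under LPS-MIC-1. LPS stood above the other groups, and LPS-MIC-1 lay just above control without overlap. Gclm rose by 0.77 from control to LPS (standard error 0.0452, adjusted p = 2.61e-06) and fell by 0.64 from LPS to LPS-MIC-1 (standard error 0.0452, adjusted p = 2.59e-06). The remaining difference from control was 0.13 (standard error 0.0452, adjusted p = 0.0240) and did not pass.

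Slc7a11, the cystine transporter that feeds glutathione synthesis, was 3.21, 3.35 and 3.06 FPKM in control, 22.2, 22.5 and 21.7 under LPS, and 5.27, 5.14 and 5.26 under LPS-MIC-1. All groups stood apart, with LPS-MIC-1 between control and LPS. Slc7a11 rose 6.89-fold from control to LPS (log2 fold change 2.75, standard error 0.0660, adjusted p = 4.50e-08) and fell by 2.06 from LPS to LPS-MIC-1 (standard error 0.0660, adjusted p = 2.76e-08). Above control it stayed by 0.69 (standard error 0.0660, adjusted p = 2.00e-05).

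Srxn1 and Txnrd1 encode sulfiredoxin, which restores overoxidized peroxiredoxins, and the cytosolic thioredoxin reductase. Srxn1 FPKM was 16.0, 17.0 and 15.7 in control, 41.2, 41.0 and 40.7 under LPS, and 63.2, 65.5 and 64.6 under LPS-MIC-1. Txnrd1 FPKM was 55.3, 54.2 and 53.9 in control, 70.5, 68.1 and 68.4 under LPS, and 157, 164 and 151 under LPS-MIC-1. Both genes stepped up at each group with no overlap, and both rose in all 3 comparisons. Srxn1 rose by 1.33 from control to LPS (standard error 0.0427, adjusted p = 1.29e-07) and by 0.65 from LPS to LPS-MIC-1 (standard error 0.0427, adjusted p = 1.55e-06). The larger step of Txnrd1 was the one between LPS and LPS-MIC-1, at 1.19 (standard error 0.0411, adjusted p = 4.03e-08), against 0.34 between control and LPS (standard error 0.0411, adjusted p = 0.000149). Under quantile normalization the step of Txnrd1 from LPS to LPS-MIC-1 was 0.85, short of the called fold. Without control replicate 2 or 3, or LPS replicate 1 or 3, the step of Txnrd1 from control to LPS had an adjusted p of 0.00101 to 0.00123 and did not pass, nor did it under quantile normalization (adjusted p = 0.00648). Against control, Srxn1 was 1.98 higher in LPS-MIC-1 (adjusted p = 4.71e-09) and Txnrd1 was 1.53 higher (adjusted p = 1.16e-08).

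Osgin1, an oxidative stress induced growth inhibitor, was 10.8, 11.8 and 11.3 FPKM in control, 9.19, 9.83 and 9.18 under LPS, and 17.1, 23.0 and 14.9 under LPS-MIC-1. LPS-MIC-1 was the highest group and the most spread. Osgin1 rose by 0.93 from LPS to LPS-MIC-1 (standard error 0.144, adjusted p = 0.000349), while the difference of LPS from control was -0.26 (standard error 0.144, adjusted p = 0.146) and that of LPS-MIC-1 from control was 0.67 (standard error 0.144, adjusted p = 0.00268). Without LPS-MIC-1 replicate 3, the rise of Osgin1 from LPS was 1.07 and was called, and that from control was 0.81 (adjusted p = 0.000559) and passed. Without LPS-MIC-1 replicate 1 or any of the 3 LPS libraries, the rise of Osgin1 from LPS to LPS-MIC-1 had an adjusted p of 0.00104 to 0.00194 and did not pass.

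By any fold, 5 of the 10 genes rose and 2 fell between control and LPS in cells, where 18.6% of all tested genes rose and 19.3% fell. Between LPS and LPS-MIC-1, 4 rose and 3 fell, against 32.8% and 33.7%. Between control and LPS-MIC-1, 4 rose and 3 fell, against 29.9% and 30.5%. In each of these comparisons 9 of 10 genes had groups that did not overlap, which also held for 79.4%, 85.5% and 83.0% of all tested genes. The 8 targets did not move as a block: from control to LPS to LPS-MIC-1, Hmox1, Slc7a11 and Gclm went up and then down, Srxn1 and Txnrd1 went up and up again, Gclc went down and then did not pass, and Nqo1 and Osgin1 rose between LPS and LPS-MIC-1 without passing between control and LPS.

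In muscle, marker genes were read in the same way. The muscle fibre list, with 12 of 12 genes found, summed to 211971 to 216971 FPKM in control, 201040 to 204775 under LPS and 159713 to 172343 under LPS-MIC-1, so that fibre genes were present at high levels in every library. Other lists differed between the groups, and their part in the results was not tested. The myogenic list summed to 4441 to 4507, 5662 to 5756 and 2828 to 3074 in the same order, the neutrophil list (9 of 10 genes found) to 1.73 to 2.74, 1.76 to 2.02 and 14.3 to 19.9, and the liver list (6 of 6) to 0.999 to 1.59, 0.895 to 1.55 and 5.64 to 9.53. The macrophage list summed to at most 14.1 in control and 16.1 in LPS, where Emr1 and Ptprc were listed at 0, and to 16.8, 15.0 and 141 under LPS-MIC-1, with Lyz2 at 78.3 FPKM in replicate 3. The endothelial list (8 of 8) summed to 86.7 to 92.0 in control, 55.3 to 57.5 under LPS and 83.7 to 93.0 under LPS-MIC-1. In the same order, the adipose list (7 of 7) summed to 288 to 294, 220 to 244 and 324 to 352, and the fibroblast list (7 of 7) to 124 to 130, 128 to 130 and 142 to 161. The median FPKM of the fibroblast list in a library was 10.1 to 11.4, 11.1 to 11.6 and 5.25 to 6.43. That of the fibre list was 11619 to 11907, 11616 to 11793 and 13418 to 14229. Under LPS-MIC-1 both medians thus went the other way than the sums. Between LPS and LPS-MIC-1, the medians of the myogenic, neutrophil, liver and endothelial lists went the same way as their sums. In bulk tissue, fewer cells of a type and less RNA per cell cannot be told apart.

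Between muscle LPS and control none of the 9 tested genes was called with limma, where 1.25% of all tested genes were, 0.654% higher and 0.591% lower. At an unadjusted p under 0.05 there were 3, a number for which the share over all tested genes was not computed. At an adjusted p under 0.05 there were 2, Nfe2l2 and Srxn1, both higher in LPS, where 8.25% of all tested genes rose and 7.48% fell. Between LPS-MIC-1 and LPS, Hmox1, Gclc and Srxn1 were called higher and none lower, against 9.67% and 5.44% of all tested genes. Between LPS-MIC-1 and control, Nfe2l2, Hmox1 and Srxn1 were called higher and none lower, against 9.33% and 6.12%. By any fold, 6 of 9 genes rose between LPS and LPS-MIC-1 and 8 of 9 between control and LPS-MIC-1, and none fell. Among all tested genes 28.3% rose and 28.2% fell in the former, and 30.0% rose and 28.5% fell in the latter. Under quantile normalization 5 genes rose and 1 fell in each of these comparisons, and 2 were called higher. The shares over all tested genes were not computed for that setting. The groups did not overlap for 2, 8 and 8 of the 9 genes in the 3 comparisons, which also held for 36.5%, 64.2% and 64.6% of all tested genes. The median log2 fold change of the 9 genes was 0.02 between LPS and control, 0.43 between LPS-MIC-1 and LPS and 0.38 between LPS-MIC-1 and control, beside 0.01, -0.01 and 0.01 over all tested genes.

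**Figure D2:**
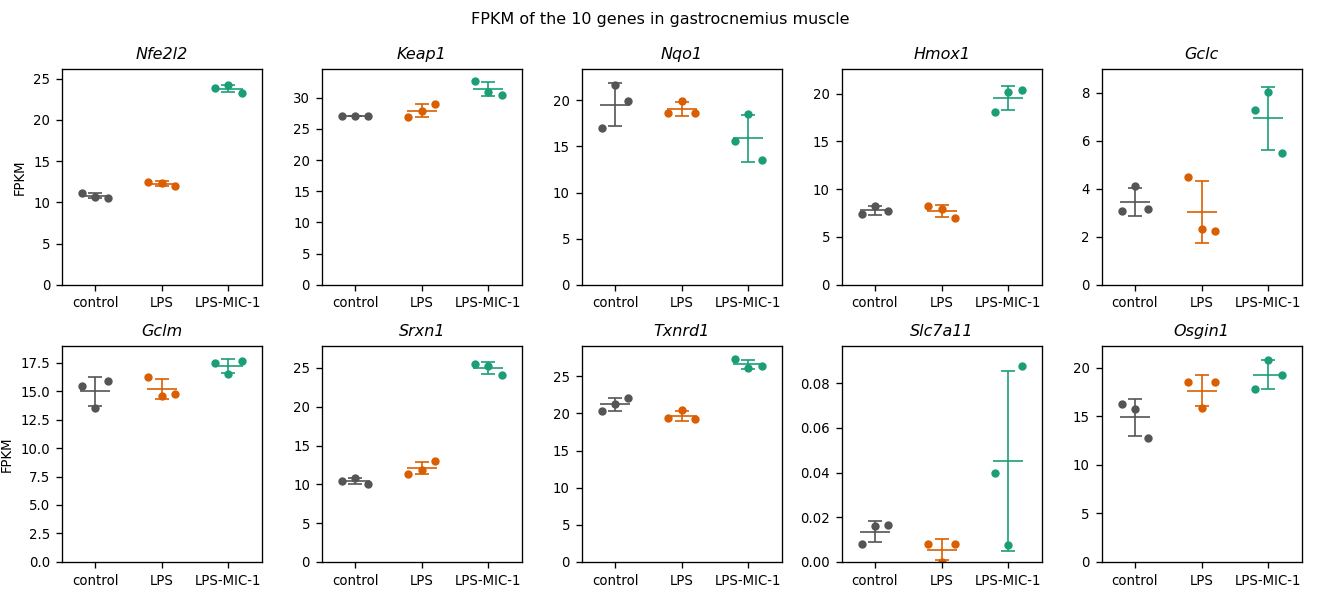
FPKM (vertical axis of each panel, from 0, with its own range) of the 10 genes in gastrocnemius muscle, by group; points are the 3 libraries, and the wide bar and whiskers are their mean ± SD. Control and LPS lie close together in most panels, and Slc7a11 does not exceed 0.0877 FPKM. The LPS-MIC-1 libraries of Nfe2l2, Keap1, Hmox1, Gclc, Gclm, Srxn1 and Txnrd1 lie above all others, those of Keap1 and Gclm by little.

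Nfe2l2 FPKM in muscle was 11.1, 10.7 and 10.6 in control, 12.5, 12.4 and 11.9 under LPS, and 23.9, 24.2 and 23.3 under LPS-MIC-1. The 3 groups did not overlap, and the LPS-MIC-1 libraries stood well above the rest. Nfe2l2 rose by 0.95 from LPS to LPS-MIC-1, a 1.94-fold change of mean FPKM just short of the called fold (standard error 0.0425, adjusted p = 4.27e-07), and by 1.13 from control to LPS-MIC-1 (standard error 0.0425, adjusted p = 1.36e-07). Under quantile normalization the latter was 0.99, no longer past the called fold. The rise of Nfe2l2 from control to LPS was 0.19 (standard error 0.0425, adjusted p = 0.0216), and without control replicate 2 or 3, or LPS replicate 1 or 2, its adjusted p was 0.0664 to 0.0758 and it did not pass.

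Keap1 was 27.1, 27.2 and 27.1 FPKM in control, 26.9, 28.0 and 28.9 under LPS, and 32.7, 31.0 and 30.5 under LPS-MIC-1. Control and LPS overlapped, and LPS-MIC-1 was a little above both. Keap1 rose by 0.17 from LPS to LPS-MIC-1 (standard error 0.0421, adjusted p = 0.00887) and by 0.21 from control to LPS-MIC-1 (standard error 0.0421, adjusted p = 0.00270), while the difference of LPS from control was 0.04 (adjusted p = 0.550). Quantile normalization moved the median log2 fold change of all tested muscle genes to -0.12 between LPS-MIC-1 and LPS. Between LPS-MIC-1 and control it moved it to -0.11. Under quantile normalization the rises of Keap1 had adjusted p of 0.114 and 0.132 and did not pass.

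Nqo1 was 17.0, 21.6 and 19.9 FPKM in muscle control, 18.7, 20.0 and 18.6 under LPS, and 15.6, 18.6 and 13.5 under LPS-MIC-1. Nqo1 was thus expressed in every muscle library, and the LPS-MIC-1 libraries were the lowest on average, with replicate 2 reaching into the control range and just below the LPS range. The log2 fold change of Nqo1 between LPS-MIC-1 and LPS was -0.27 (standard error 0.123, adjusted p = 0.0900) and between LPS-MIC-1 and control -0.30 (standard error 0.123, adjusted p = 0.0645), neither past the threshold. Without LPS-MIC-1 replicate 2 these were -0.39 (adjusted p = 0.0196) and -0.42 (adjusted p = 0.0144), and without control replicate 1 the latter was -0.40 (adjusted p = 0.0285), so that the values then passed on the lower side. Under quantile normalization both passed on the lower side as well (adjusted p = 0.0184 and 0.00968).

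Hmox1 in muscle was 7.38, 8.29 and 7.71 FPKM in control, 8.26, 7.89 and 7.03 under LPS, and 18.1, 20.2 and 20.4 under LPS-MIC-1. Control and LPS overlapped and every LPS-MIC-1 library was above them. Hmox1 rose 2.53-fold from LPS to LPS-MIC-1 (log2 fold change 1.33, standard error 0.0797, adjusted p = 2.40e-06) and by 1.32 from control (standard error 0.0797, adjusted p = 2.48e-06). Without LPS-MIC-1 replicate 3, the library with the high macrophage sum, the rise of Hmox1 from LPS was 1.30 (adjusted p = 2.43e-05).

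Gclc was 3.07, 4.13 and 3.16 FPKM in muscle control, 4.50, 2.33 and 2.24 under LPS, and 7.28, 8.05 and 5.50 under LPS-MIC-1. LPS replicate 1 lay above the other 5 untreated or LPS-treated libraries but below every LPS-MIC-1 library. Gclc rose by 1.23 from LPS to LPS-MIC-1 (standard error 0.272, adjusted p = 0.00486) and by 0.98 from control to LPS-MIC-1 (standard error 0.272, adjusted p = 0.0139), the latter just short of the called fold. Without control replicate 2 the rise of Gclc from control was 1.12, and without LPS-MIC-1 replicate 3 it was 1.14, and it was then called.

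Gclm was 15.5, 13.5 and 15.9 FPKM in muscle control, 16.2, 14.6 and 14.7 under LPS, and 17.5, 16.5 and 17.6 under LPS-MIC-1. The LPS-MIC-1 libraries lay just above the rest. The difference of Gclm between LPS-MIC-1 and LPS was 0.18 (standard error 0.0724, adjusted p = 0.0606) and did not pass, whereas Gclm rose by 0.20 from control to LPS-MIC-1 (standard error 0.0724, adjusted p = 0.0396). The former passed without control replicate 2 (adjusted p = 0.0284) or LPS replicate 1 (adjusted p = 0.0396). The latter did not pass without control replicate 1 or 2, LPS replicate 2 or 3, or LPS-MIC-1 replicate 1 or 3, at an adjusted p of 0.0503 to 0.117, nor under quantile normalization (adjusted p = 0.499).

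Slc7a11 was at most 0.0163 FPKM in muscle control, 0.00818 in LPS and 0.0877 under LPS-MIC-1, and it was not tested there. The authors' mean normalized counts of Slc7a11 were 3.19 over the LPS and LPS-MIC-1 libraries and 3.72 over control and LPS-MIC-1, so that no difference between groups was detectable at this depth.

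Srxn1 was 10.5, 10.8 and 10.0 FPKM in muscle control, 11.4, 11.9 and 13.0 under LPS, and 25.5, 25.2 and 24.1 under LPS-MIC-1. Each group stood above the one before without overlap. Srxn1 rose by 1.04 from LPS to LPS-MIC-1 (standard error 0.0583, adjusted p = 1.60e-06) and by 1.25 from control (standard error 0.0583, adjusted p = 5.20e-07). The former sat at the edge of the called fold, at 0.99 with 1 added before taking logs and 0.91 under quantile normalization. The small rise of Srxn1 from control to LPS, 0.21 (standard error 0.0583, adjusted p = 0.0453), passed without LPS replicate 1 but not without any other single library, at an adjusted p of 0.0521 to 0.127.

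Txnrd1 was 20.3, 21.2 and 22.1 FPKM in muscle control, 19.4, 20.4 and 19.2 under LPS, and 27.3, 26.1 and 26.4 under LPS-MIC-1. LPS-MIC-1 stood above both other groups, which overlapped. Txnrd1 rose by 0.43 from LPS to LPS-MIC-1 (standard error 0.0457, adjusted p = 7.33e-05) and by 0.32 from control to LPS-MIC-1 (standard error 0.0457, adjusted p = 0.000388).

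Osgin1 was 16.2, 15.7 and 12.7 FPKM in muscle control, 18.6, 15.8 and 18.6 under LPS, and 17.8, 20.8 and 19.3 under LPS-MIC-1. LPS overlapped both neighbours. Osgin1 rose by 0.38 from control to LPS-MIC-1 (standard error 0.109, adjusted p = 0.0173), although not without LPS-MIC-1 replicate 2 (adjusted p = 0.0598) or under quantile normalization (adjusted p = 0.104), while its difference between LPS-MIC-1 and LPS was 0.13 (standard error 0.109, adjusted p = 0.351).

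**Figure D3:**
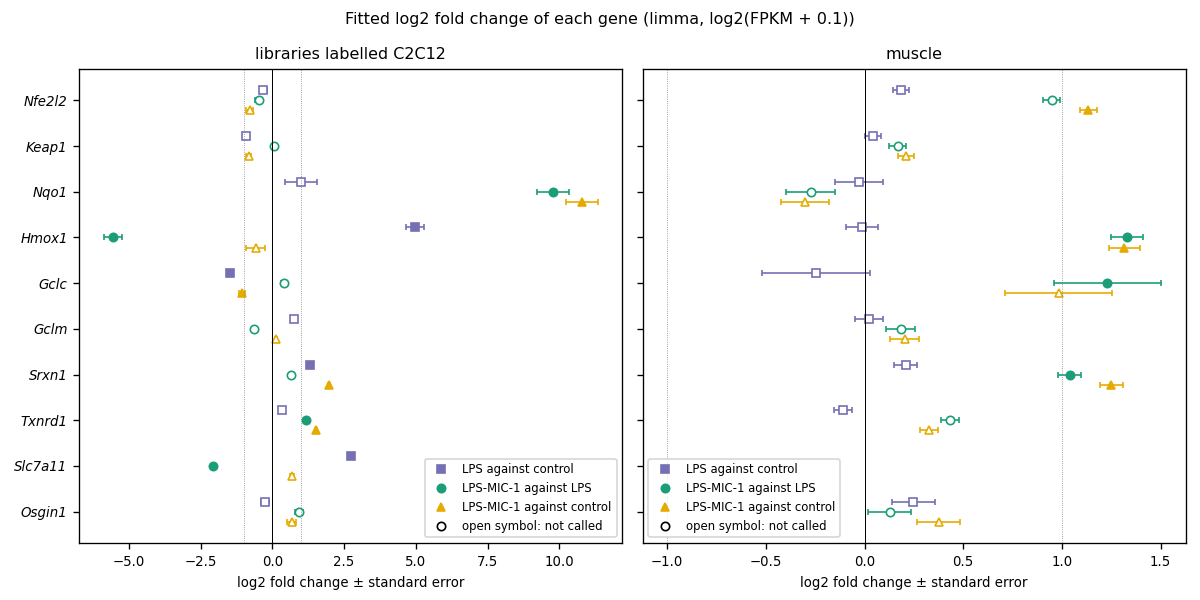
Fitted log2 fold change ± standard error (horizontal axis, different ranges in the 2 panels) of each gene in the libraries labelled C2C12 and in muscle; squares, circles and triangles are the 3 comparisons, filled symbols are called genes, and dotted lines mark a log2 fold change of 1 either way. In cells the values run from -5.54 to 10.78 with both signs, whereas in muscle the green and yellow symbols lie right of 0 for every gene but Nqo1.

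Set side by side, Srxn1 and Txnrd1 rose between LPS and LPS-MIC-1 in both experiments. Srxn1 changed by 0.65 in cells and 1.04 in muscle, and Txnrd1 by 1.19 and 0.43. Hmox1 had opposite signs, -5.54 in cells and 1.33 in muscle, and so had Nfe2l2, at -0.47 (not passed) and 0.95. Nqo1 was the gene with the largest difference between LPS-MIC-1 and LPS in cells and the only one of the 9 with a negative value in muscle. The tables of the experiments were normalized apart, and the differences between experiments were not tested.

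Other genes of the pathway were read from lists chosen with earlier results of these data known. Of these genes, 13 were partners or regulators of Nrf2 and 30 were further targets. Of the 10 partners tested in cells, 1 was called higher and 4 lower between LPS-MIC-1 and LPS, with a median log2 fold change near -1, where 24.3% of all tested genes were called higher and 25.6% lower. With 1 added before taking logs the number called lower was 2, and under quantile normalization or with a mean FPKM over 5 it was 3. The one higher, named after its value was seen, was Rbx1, the ring subunit of the Cul3 ligase. Sqstm1, the autophagy receptor p62 that binds Keap1, was 188 ± 6.01 FPKM in control, 3260 ± 31.6 in LPS and 514 ± 35.8 under LPS-MIC-1 (SD, n = 3). Sqstm1 thus rose by 4.12 from control to LPS (adjusted p = 6.25e-09) and fell by 2.67 from LPS to LPS-MIC-1 (adjusted p = 6.74e-09), the same up and down order as Hmox1. Palb2, a partner of BRCA2 that can bind Keap1, went from 0.833 ± 0.221 in LPS to 0.117, 0 and 0 under LPS-MIC-1 (log2 fold change -2.82, adjusted p = 6.59e-05). Dpp3, a peptidase that can bind Keap1, went from 19.2 ± 4.07 to 4.15 ± 2.82 (log2 fold change -2.41, adjusted p = 0.00369) and did not pass.

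In muscle, 3 of the 9 tested partners were called higher between LPS-MIC-1 and LPS and none lower, where 9.67% and 5.44% of all tested genes were. Their median log2 fold change was 0.64, and these counts did not change without LPS-MIC-1 replicate 3. All 3 encode proteins that share binding sites with Nrf2. Maff, a small Maf protein, was listed at 0 in all control libraries, at 0.250, 0.251 and 0.908 FPKM in LPS and at 15.2, 13.4 and 12.9 under LPS-MIC-1 (log2 fold change from LPS 4.80, adjusted p = 2.08e-05). Maff passed the FPKM filter only through the LPS-MIC-1 libraries, so that its being called higher was largely set by the filter. Mafk, another small Maf protein, rose from 4.77 ± 0.215 in LPS to 44.5 ± 1.63 FPKM in LPS-MIC-1 (log2 fold change 3.19, adjusted p = 3.59e-09). Bach1, a repressor of Hmox1 at Nrf2 sites, rose from 3.98 ± 0.207 to 12.9 ± 0.312 FPKM (log2 fold change 1.67, adjusted p = 5.72e-06).

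Of the 29 further targets tested in cells, 18 were called higher and 5 lower between LPS-MIC-1 and LPS, where 24.3% and 25.6% of all tested genes were. Their median log2 fold change was 1.66. Without LPS-MIC-1 replicate 1 there were 17 higher and 5 lower of 28, and without replicate 3 there were 17 and 5 of 29. The largest changes were of glutathione transferases, which join glutathione to electrophiles. Gsta4 was 0.151, 0.153 and 1.53 FPKM in LPS and 598, 587 and 799 under LPS-MIC-1. Gsta1 was 0.0879, 0 and 1.69 in LPS and 353, 421 and 515 under LPS-MIC-1. Gsta2 was 0.177, 0.360 and 0.449 in LPS and 166, 199 and 235 under LPS-MIC-1. All 3 were near 0 in the libraries with macrophage markers, as Nqo1 was, and since these genes are close copies, the split of reads among them is uncertain. They passed the FPKM filter only through the LPS-MIC-1 libraries, so that their being called higher was largely set by the filter. The 18 called higher and the median of 1.66 include them, and further genes of this kind were not counted. The 5 called lower, named after their values were seen, were Tkt, Ftl1, Fth1, Abcc1 and Cat. Of these, the ferritin subunit genes Ftl1 and Fth1, which store the iron that heme oxygenase frees, had log2 fold changes of 2.01 and 3.11 from control to LPS and of -2.52 and -2.90 from LPS to LPS-MIC-1. Both have many near-identical copies, so that their levels are uncertain.

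In muscle, 24 further targets were tested between LPS-MIC-1 and LPS. None was called higher and 1 was called lower, where 9.67% and 5.44% of all tested genes were. The median log2 fold change of the 24 was 0.09. At the adjusted p alone, 8 rose and 6 fell, where 28.3% of all tested genes rose and 28.2% fell, so that the shares lay near this background. The gene called lower was Ephx1, the microsomal epoxide hydrolase, at 12.4, 10.8 and 11.4 FPKM in LPS and 3.47, 3.78 and 4.52 under LPS-MIC-1 (log2 fold change -1.54, adjusted p = 3.85e-06). Blvrb, a biliverdin reductase, fell from 5.40 ± 0.447 to 3.20 ± 0.820 FPKM (log2 fold change -0.76, adjusted p = 0.00500), with no overlap between these groups. G6pdx, the first enzyme of the pentose phosphate pathway, was 1.40, 1.34 and 1.60 FPKM under LPS and 1.60, 1.87 and 4.36 under LPS-MIC-1 (log2 fold change 0.68, adjusted p = 0.132). Its highest value came from replicate 3, the library with the high macrophage sum, and the other LPS-MIC-1 libraries lay near the LPS range.

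**Figure D4:**
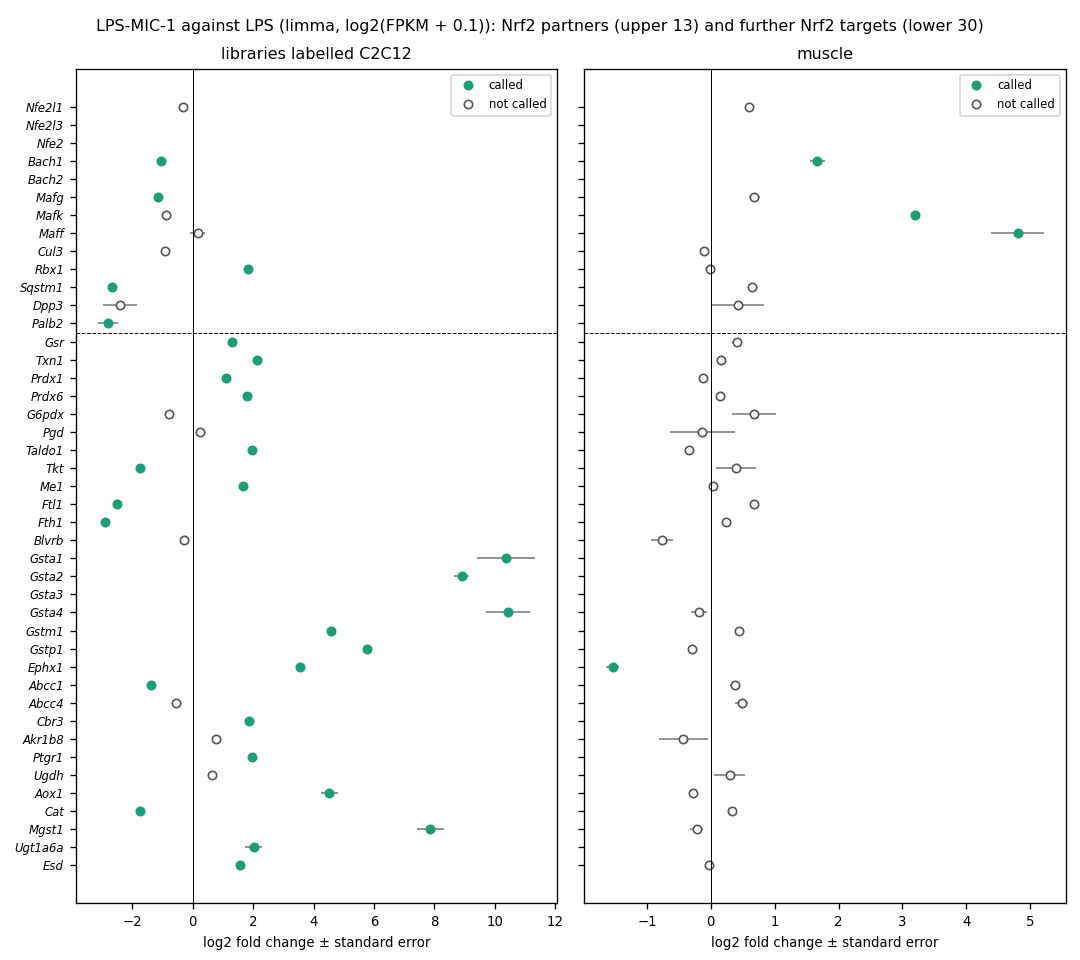
Fitted log2 fold change ± standard error (horizontal axis, different ranges in the 2 panels) of LPS-MIC-1 against LPS for 13 partners or regulators of Nrf2 (above the dashed line) and 30 further targets (below it); genes with no symbol were not tested. In the libraries labelled C2C12 most further targets lie right of 0, with Gsta1, Gsta2, Gsta4 and Mgst1 farthest, whereas in muscle the 3 called higher are Maff, Mafk and Bach1, and the further targets lie between -1.54 (Ephx1, the one called lower) and 0.68 (G6pdx).

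The genes most like Nfe2l2 and Nqo1 were ranked by Pearson's r of log2(FPKM + 0.1) over the 9 libraries of an experiment, as a description only, since those libraries share groups and marker genes. In muscle the genes most like Nfe2l2 were Per1, Cry2 and Plin4, all with r = 0.999. Per1 and Cry2 are genes of the circadian clock, and Plin4 encodes a lipid droplet protein. Per1 was 5.39 ± 0.496 FPKM in control, 8.20 ± 0.122 in LPS and 55.2 ± 3.24 under LPS-MIC-1, the same order as Nfe2l2 with a larger step. In cells, Nqo1 had 815 of 8141 genes with r over 0.95, led by Ptrf, Podnl1 and Nid1, whereas Nfe2l2 had 110, led by C330007P06Rik, Pknox1 and Clpb at r = 0.993, 0.991 and 0.989. In muscle 643 of 5456 genes had r over 0.95 with Nfe2l2 and 1 had with Nqo1, Yif1a at r = 0.963, ahead of Chrac1 at 0.949 and Lta4h at 0.937.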

How the data were processed

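The submitters' processing notes name kallisto, tximport and the mm9 build, and the authors deposited FPKM values of 21401 genes in each library. The authors also deposited DESeq2 tables for 6 comparisons, which hold mean normalized counts (a signal averaged over the libraries compared), fold changes and p-values. Of these the authors' mean normalized counts alone were used, to judge depth. They summed to 15338194 to 18734426 per comparison in cells and to 13873466 and 13883740 in the muscle comparisons with LPS-MIC-1. The depth of single libraries is unknown, so no counting interval is given. The muscle table held 9 per-sample value columns without a name, which were not used.

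Each experiment was fitted apart with limma 3.58.1 in R 4.3.3 on log2(FPKM + 0.1), as 3 group means with a trended eBayes step over 9 libraries. Fold changes on this scale understate the change of low genes. Fits were also run on simulated data in which all groups had the same spread and 200 genes were changed. The cell data differ from that setting, so the simulation does not vouch for their fits. Alternatives were pseudocounts of 1 and 0.01, a mean FPKM over 5 or no filter (genes above 0 in at least 3 libraries), median-ratio scaling, quantile normalization, no trend, fits of the 6 libraries of a comparison, a replicate block, the adjusted p alone and each library left out. List counts without single libraries were added after the data were seen. From each list the 3 tested genes with the largest change between LPS-MIC-1 and LPS are named. The members and lists were chosen with earlier results of these data known.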

Additional observations from a re-analysis of the deposited data

Results flagged for a closer look

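Several genes moved one way in every LPS-MIC-1 or LPS library of one experiment and the other way in the other, a difference that was not tested because the expression tables were normalized and fitted apart. In log2 fold changes, with the libraries labelled C2C12 before muscle, Nfe2l2 was at -0.32 and 0.19 between LPS and control, at -0.47 and 0.95 between LPS-MIC-1 and LPS, and at -0.79 and 1.13 between LPS-MIC-1 and control. Between LPS-MIC-1 and LPS, Nqo1 was at 9.79 and -0.27, Hmox1 at -5.54 and 1.33, and Gclm at -0.64 and 0.18. Between LPS-MIC-1 and control, Keap1 was at -0.83 and 0.21 and Gclc at -1.06 and 0.98. Some of these values did not pass the test in their own experiment, as given above. The cell libraries that were compared also differed in their macrophage and myogenic markers.

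A table that served no comparison here, the authors' muscle comparison of control with LPS, gave Slc7a11 a mean normalized count of 2391, against 3.19 and 3.72 in the other muscle tables and at most 0.0877 FPKM in any muscle library. Nfe2l2 had 12304 there, against 582 and 559. That table lists 21541 rows, where the others list 21401, and its normalized counts summed to 35868771, against 13883740 and 13873466. The cause was not tested.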

How the results depend on the processing

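Over 57 fitted member changes and their alternatives, 1001 of 1022 values kept direction and call. A change short of the called fold that gained or lost the adjusted p threshold counts as kept here, and several such cases are given above. The numbers of genes called were 4, 4 and 4 in cells (LPS against control, LPS-MIC-1 against LPS, LPS-MIC-1 against control) and 0, 3 and 3 in muscle. By adjusted p alone they were 7, 7 and 7 in cells and 2, 6 and 8 in muscle. Leaving out each library in turn gave 4 to 4, 4 to 5 and 3 to 5 in cells and 0 to 0, 2 to 3 and 3 to 4 in muscle. The replicate block left the numbers called at 4, 4, 4, 0, 3 and 3. By adjusted p alone, the block gave 1 in place of 2 between LPS and control in muscle, 7 higher and 1 lower in place of 6 and 0 between LPS-MIC-1 and LPS, and 8 and 1 in place of 8 and 0 between LPS-MIC-1 and control. In cells it gave 2 lower in place of 3 between LPS-MIC-1 and control. The deviations of same-numbered libraries correlated at -0.0757 to 0.0573 in cells and -0.054 to 0.0823 in muscle. Those of libraries with different numbers correlated at -0.091 to 0.121 and -0.0745 to 0.0811. Between muscle LPS and LPS-MIC-1, however, same-numbered pairs, at 0.0282 to 0.0823, lay above the other pairs, at -0.0662 to 0.00724. Whether replicate numbers pair the samples was not tested.

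Values near 0 changed sign. These were Keap1 between LPS-MIC-1 and LPS in cells (-0.00713 without LPS-MIC-1 replicate 3, up to 0.12 without another library) and, between LPS and control in muscle, Keap1 (-0.00461 under quantile normalization), Nqo1 (0.0503 without control replicate 2), Hmox1 (0.0311 without control replicate 2, 0.0520 without LPS replicate 3, down to -0.0629 without another library) and Gclm (-0.00502 under quantile normalization, -0.0490 without control replicate 2, -0.0269 without LPS replicate 1, up to 0.0655 without another library). Quantile normalization also brought Keap1 between LPS and control (-1.01) and Osgin1 between LPS-MIC-1 and LPS (1.09) past the called fold in cells. In cells it also brought Nfe2l2 and Gclc between LPS-MIC-1 and LPS (adjusted p = 0.00016 and 0.000868) and Osgin1 between LPS-MIC-1 and control (adjusted p = 0.000925) past the limma threshold. It moved the median log2 fold change of all tested muscle genes to -0.12 between LPS-MIC-1 and LPS and to -0.11 between LPS-MIC-1 and control. Srxn1 between LPS-MIC-1 and LPS in muscle was 0.9998 without LPS replicate 1. The cause was not tested.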
